A study of Mus musculus with 15 samples.

Results

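Bone morphogenetic proteins (BMPs) are secreted ligands of the TGF-beta family, and the 10 genes described here cover their signal at 4 levels. They are the ligand genes Bmp2, Bmp4 and Bmp6, the receptor gene Bmpr2, the inhibitory Smad genes Smad6 and Smad7, and the target genes Id1, Id2, Id3 and Id4. They were taken by name from the 55487 genes in each deposited table, and all 10 were found. The names were selected on earlier results of the same comparison, the log2 changes and p-values of kidney disease against wild type, in which Id3 was among the genes with the smallest p. The changes and adjusted p-values given for the 10 genes are therefore a description, and nothing is concluded from their passing a threshold.

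The tissue was left ventricular free wall, from which RNA was sequenced in 7 male mice with kidney disease and 8 male wild-type littermates, all killed at 225 days. The kidney disease mice carried a mutation of Col4a5, a type IV collagen chain of the glomerular basement membrane, and had reached the equivalent of human chronic kidney disease stage 4 to 5. The labels call it both a knockdown and a knockout, and no Cre driver or treatment is named. For anaesthesia the labels give isoflurane in one place and ketamine/xylazine in another. The study's title concerns altered heart metabolism in chronic kidney disease before hypertrophy, and the samples are described as biological replicates.

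Library totals were 54263014 to 65519279 counts in kidney disease libraries, against 48748379 to 57962094 in wild-type libraries. Col4a5 fell to 522 to 1111 counts per library in kidney disease, against 2442 to 3620 in wild type, a log2 change of -2.08 (SE 0.11, edgeR adjusted p = 3.0e-09). Ventricular cardiomyocyte markers were abundant in all 15 libraries. Over the 9 genes they summed to 70617 to 79451 CPM in kidney disease libraries, against 71534 to 93551 CPM in wild-type libraries. CPM here are counts scaled to the library total as adjusted by TMM. The mitochondrial share of counts was 10.55% to 12.78% in kidney disease libraries, against 11.66% to 14.36% in wild-type libraries. With group means subtracted, its r over the 15 libraries, given with no test, was -0.68 with Bmp2, -0.52 with Bmp6, -0.50 with Smad7 and -0.48 with Id2. The part of this share in the results was not tested. Titin (Ttn) had the most counts in 3 kidney disease and 2 wild-type libraries, and the mitochondrial gene mt-Co1 in the other 4 and 6. The atrial marker score, the mean log2 CPM of 6 atrial cardiomyocyte genes, was 1.99 in the library kidney disease 6 and 1.31 in wild type 5, against 5.31 to 7.91 in the other 13.

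A BMP binds a complex of type I and type II receptors, which phosphorylates Smad1, Smad5 and Smad9. With Smad4 these enter the nucleus and raise transcription of the Id genes and of Smad6 and Smad7, whose products damp the pathway in turn. Id proteins are helix-loop-helix proteins without a DNA-binding region and hold E proteins away from DNA. In the heart and vessels the pathway is best known for its role in endothelial cells and in valve and septum formation.

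In these ventricles 2 of the 10 genes, the targets Id1 and Id3, were called higher in kidney disease. The log2 changes of Id1, Id2, Id3, Smad6 and Smad7 lay between 0.34 and 0.46, and those of Id4, Bmp2, Bmp4, Bmp6 and Bmpr2 between 0.04 and 0.15. Id1 and Id3 passed at an adjusted p under 0.05, the other 8 did not, and none of the 10 fell. Over all 20718 genes tested, 0.811% were called higher and 0.473% lower, 1.28% in either direction. The 10 genes had a median log2 change of 0.24, and all 10 values were above 0, against a median of 0.0042 and 51.2% above 0 over all genes tested. None of the 10 had groups that did not overlap, a state reached by 0.386% of all genes tested in the direction of higher values in kidney disease.

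**Figure D1:**
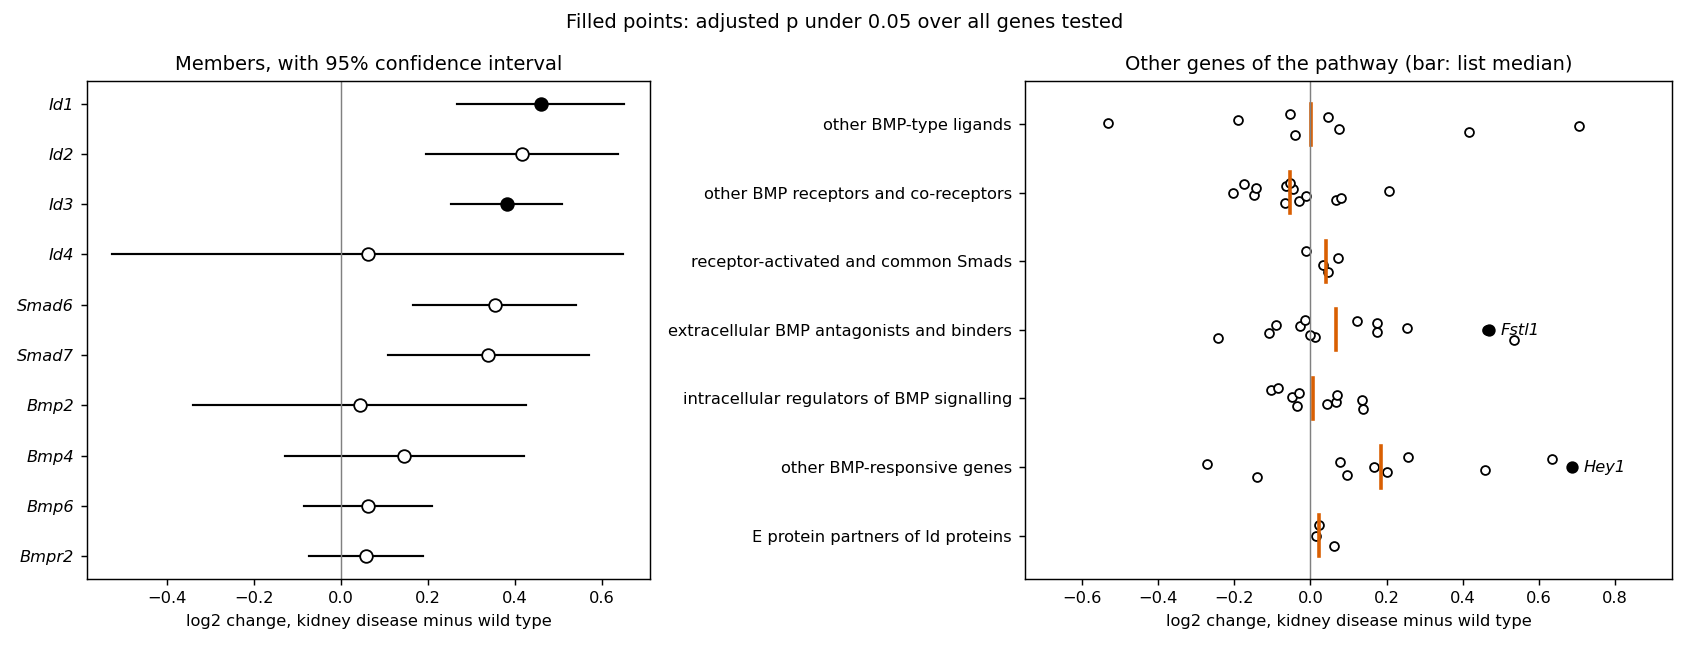
Left, log2 change of each of the 10 genes, kidney disease minus wild type (x axis), with its 95% confidence interval. Right, the same log2 change for every tested gene of 7 lists of other pathway genes, 1 point a gene, with a bar at the list median. Filled points passed an adjusted p of 0.05 over all genes tested, and they are Id1, Id3, Fstl1 and Hey1.

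Promoter windows were looked up for the targets because Smads bind known short sequences at target genes. RefSeq windows on GRCm38.p6, from 250 bases before to 50 after a gene's start, were given for Id2, Id3, Id4, Smad6, Bmp4, Bmp6 and Bmpr2, and Id1, Smad7 and Bmp2 are named only. The palindrome GTCTAGAC, a Smad-binding sequence that reads alike on both strands, was found in Smad6 at position -4 from the start and in 0.21% of the 32851 RefSeq promoter windows. The GC-rich Smad element GGCGCC was found in Id2 at position -231, in Id4 at -148 and in Bmpr2 at -105, in 3 of the 7 windows against 11.87% of all windows. The windows with these matches were rich in G and C, at 63.3% of bases in Id2, 73.3% in Id4, 59.3% in Bmpr2 and 66.3% in Smad6. Those without either sequence were so too, at 60.0% in Id3, 64.0% in Bmp4 and 69.3% in Bmp6. The median over all windows was 52.7%. The E-box CANNTG was in 4 of 7 windows and in 72.31% of all. The composite BMP response element, GGCGNC then 5 bases then GTCT (GGCGNCNNNNNGTCT), was in 0 of 7 and in 0.24% of all. None of these sequences, the E-box included, was found in the window of Id3, the only called gene with a window. The windows before the RefSeq starts of Id2, Id3, Bmp6 and Bmpr2 overlap exons annotated in GENCODE, and the Id2 and Bmpr2 matches lie inside the gene bounds given below. Both strands were searched, within these windows only, so a sequence farther from a start could not be found. The letters GGCGCC can also form the first part of the composite. The Smad6 window is shown from 250 bases before to 10 after the start, on the minus strand at chr9:64022050-64022309, with the palindrome in capitals. It is followed by the GGCGCC matches in capitals with 10 bases on each side, for Id2 on the minus strand at chr12:25096308-25096333, Id4 on the plus strand at chr13:48260958-48260983 and Bmpr2 on the plus strand at chr1:59764164-59764189. A match is a description of letters and not a measured site.
Smad6: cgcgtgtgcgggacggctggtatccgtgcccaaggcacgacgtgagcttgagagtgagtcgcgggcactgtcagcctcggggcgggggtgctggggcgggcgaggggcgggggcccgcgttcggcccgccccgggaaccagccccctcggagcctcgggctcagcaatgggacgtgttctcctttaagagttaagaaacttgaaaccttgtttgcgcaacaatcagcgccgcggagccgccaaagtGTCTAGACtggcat
Id2: aggccccctgGGCGCCcagcgcacac
Id4: cgggttgcccGGCGCCccgccctcgc
Bmpr2: ccggcggccgGGCGCCgctgcctgcc

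Among Bmp2, Bmp4 and Bmp6, Bmp6 had the highest level. Bmp6 (ENSMUSG00000039004, chromosome 13, 38345107 to 38500302, plus strand, GRCm38) encodes a ligand known in the liver for setting hepcidin, the iron hormone. Its lowest, median and highest TMM-scaled CPM were 31.9, 40.6 and 46.4 in kidney disease and 34.9, 37.4 and 40.6 in wild type. The kidney disease range enclosed the wild-type one, with 3 kidney disease libraries above every wild-type library and kidney disease 6 the lowest of all. The log2 change was 0.06 (SE 0.07, 95% confidence interval -0.09 to 0.21, adjusted p = 0.809). Of its 3900 exon bases, 224 lie in exons of Txndc5 on the opposite strand, and whether counting used strand is not given in the sources used here.

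Bmp4 (ENSMUSG00000021835, chromosome 14, 46383520 to 46390669, minus strand) encodes a ligand needed for mesoderm and heart development. It was measured at 3.75, 5.06 and 6.65 CPM (lowest, median and highest) in kidney disease and at 3.74, 4.62 and 5.71 CPM in wild type. The lowest values of both groups were almost equal, and 2 kidney disease libraries lay above every wild-type one. For Bmp4 the log2 change came to 0.15 (SE 0.13, interval -0.13 to 0.42, adjusted p = 0.735), and 89 of its 2248 exon bases overlap Gm15217 on the other strand.

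Bmp2 (ENSMUSG00000027358, chromosome 2, 133552159 to 133562885, plus strand) encodes a ligand that shapes the valve-forming cushions of the embryonic heart. It was the lowest of the 3 ligands, with 92 to 249 counts per library. Its lowest, median and highest CPM were 1.63, 2.41 and 3.79 in kidney disease and 1.82, 2.41 and 3.36 in wild type, so the kidney disease range enclosed the wild-type one. Bmp2 had a log2 change of 0.04 (SE 0.18), with an interval of -0.34 to 0.43. Within the 10 libraries led by mt-Co1 the change was -0.12 (SE 0.19).

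Bmpr2 (ENSMUSG00000067336, chromosome 1, 59763400 to 59879014, plus strand) encodes the type II BMP receptor whose loss underlies heritable pulmonary arterial hypertension in humans. It had the most counts of the 10 genes, 7809 to 12438 per library. Its CPM ran over 155.75, 184.05 and 196.83 (lowest, median and highest) in kidney disease and 161.31, 167.79 and 195.98 in wild type. Both ranges were nearly the same, with 1 kidney disease library above and 1 below all wild-type libraries. For Bmpr2 the log2 change came to 0.06 (SE 0.06, interval -0.07 to 0.19, adjusted p = 0.798).

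The inhibitory Smads had higher means in kidney disease without passing the threshold. Smad6 (ENSMUSG00000036867, chromosome 9, 63953076 to 64022059, minus strand), whose promoter palindrome is shown above, encodes an inhibitor that acts mainly on BMP receptors. Smad6 was at 27.2, 35.1 and 39.5 CPM (lowest, median and highest) in kidney disease and at 21.3, 26.5 and 31.5 CPM in wild type. All 7 kidney disease libraries lay above the wild-type mean, 4 of them above every wild-type library, while kidney disease 1, 5 and 6 stayed inside the wild-type range. The log2 change was 0.35 (SE 0.09, adjusted p = 0.0564), and with 1 library left out the adjusted p ran from 0.0295 to 0.128, under the threshold without kidney disease 1 or kidney disease 6.

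Smad7 (ENSMUSG00000025880, chromosome 18, 75367529 to 75395935, plus strand) encodes an inhibitor of both TGF-beta and BMP signalling. Its lowest, median and highest values were 38.2, 62.4 and 68.0 CPM in kidney disease and 38.7, 45.5 and 53.2 CPM in wild type. In kidney disease 5 of 7 libraries lay above every wild-type one, at 62.2 CPM or more. Kidney disease 6 was the lowest of all 15 and kidney disease 1, at 47.0 CPM, was in the middle of the wild-type range. For Smad7 the log2 change came to 0.34 (SE 0.11, adjusted p = 0.163).

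The Id genes differed among themselves in level, and a difference between them in change was not tested. Id1 (ENSMUSG00000042745, chromosome 2, 152736251 to 152737410, plus strand) is the standard transcriptional readout of BMP signalling in endothelial cells. Id1 was at 45.5, 52.6 and 73.1 CPM (lowest, median and highest) in kidney disease and at 34.4, 39.0 and 50.6 CPM in wild type. In wild type 7 of 8 libraries lay below every kidney disease one, wild type 4 being the exception, and the highest of all was kidney disease 6. Id1 rose with a log2 change of 0.46 (SE 0.09, adjusted p = 0.0205), or 1.37-fold.

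Id3 (ENSMUSG00000007872, chromosome 4, 136143497 to 136145755, plus strand) is known in mice to act with Id1 in forming blood vessels and the heart wall. It was at 41.9, 47.6 and 53.5 CPM (lowest, median and highest) in kidney disease and at 35.1, 36.4 and 42.2 CPM in wild type. One pair of libraries crossed: kidney disease 1, the lowest of its group, lay just under wild type 7, the highest of its own. The log2 change was 0.38 (SE 0.06, adjusted p = 0.00635), or 1.30-fold, the 14th smallest p among all genes tested.

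Id2 (ENSMUSG00000020644, chromosome 12, 25093799 to 25097140, minus strand), needed for natural killer and innate lymphoid cells in mice, is the next of the family. Id2 was at 6.31, 7.54 and 8.68 CPM (lowest, median and highest) in kidney disease and at 4.64, 5.33 and 7.22 CPM in wild type. Wild type 2 and 7 reached into the kidney disease range and the other 6 wild-type libraries lay below it. For Id2 the log2 change came to 0.42 (SE 0.11, adjusted p = 0.0575), and with 1 library left out the adjusted p ran from 0.0273 to 0.127, under 0.05 without wild type 2 or wild type 7.

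Id4 (ENSMUSG00000021379, chromosome 13, 48261228 to 48266026, plus strand), known mainly from neural and germ cells, had 16 to 72 counts per library. It was at 0.371, 0.401 and 1.10 CPM (lowest, median and highest) in kidney disease and at 0.296, 0.455 and 0.729 CPM in wild type. Apart from kidney disease 5, the groups covered the same range. Id4 had a log2 change of 0.06 (SE 0.28), with an interval of -0.53 to 0.65, which holds the log2 changes of the other Id genes. Of its 3849 exon bases, 82 overlap A330033J07Rik and 171 overlap Gm49291, both on the other strand.

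**Figure D2:**
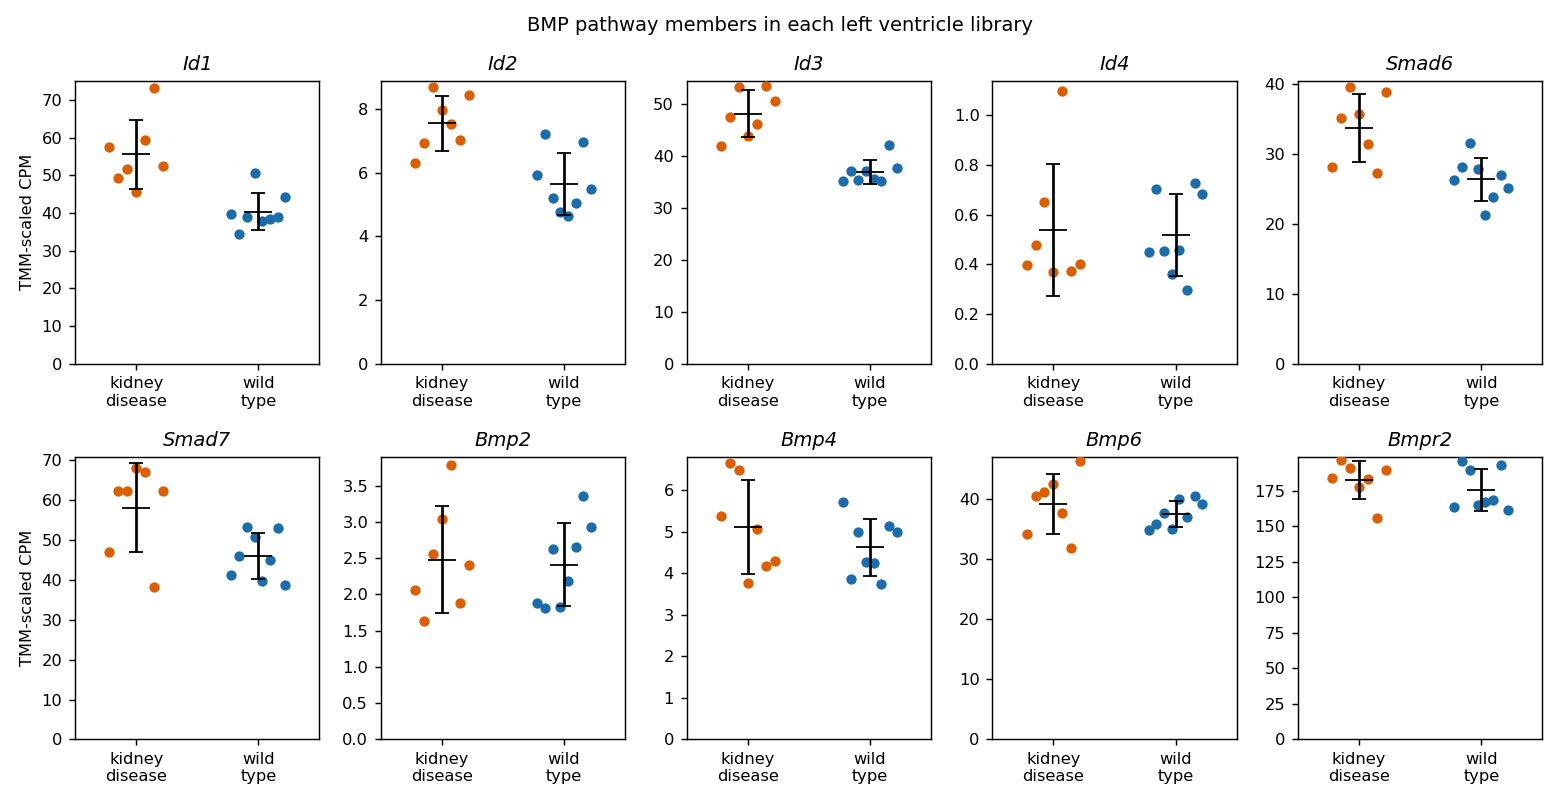
TMM-scaled CPM (y axes, from 0) of each gene in the 7 kidney disease and 8 wild-type libraries, 1 point a library, with the mean and SD. Id1, Id2, Id3, Smad6 and Smad7 have most kidney disease points above the wild-type ones, and in the Smad7 panel 5 of 7 do, while most points of Bmp2, Bmp4, Bmp6, Bmpr2 and Id4 lie in a range that both groups share.

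Levels between genes were compared per length, with the deposited FPKM averaged over the 15 libraries. Id1 had the highest level at 41.0 FPKM, followed by Id3 at 23.6, Smad7 at 11.5, Bmpr2 at 9.95, Bmp6 at 9.85, Smad6 at 9.32, Id2 at 2.7002, Bmp4 at 2.15, Bmp2 at 0.693 and Id4 at 0.138. The ranges of neighbours over the 15 libraries were apart between Id3 and Smad7, between Smad6 and Id2, between Bmp4 and Bmp2 and between Bmp2 and Id4. By group, the mean of Smad6 was 10.8 FPKM in kidney disease, above Bmpr2 at 10.4 and Bmp6 at 10.3, and 8.05 FPKM in wild type, below Bmpr2 at 9.57 and Bmp6 at 9.45. Smad7, Bmpr2, Bmp6 and Smad6 formed a run whose ranges overlapped, and Bmp6 was above Smad6 in 7 of 15 libraries. Id1 and Id3 overlapped as ranges, yet Id1 was above Id3 in 15 of 15 libraries.

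The mix of Id transcripts differed between the groups by less than its spread. Id1 made up 61.2% ± 3.69 of the summed Id FPKM in kidney disease and 60.0% ± 3.27 in wild type (SD, n = 7 and 8). Id3 made up 34.6% ± 3.10 in kidney disease and 35.7% ± 2.51 in wild type. Id2 made up 4.02% ± 0.669 in kidney disease and 4.04% ± 0.805 in wild type. The differences between the group means of these shares were smaller than their SDs.

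**Figure D3:**
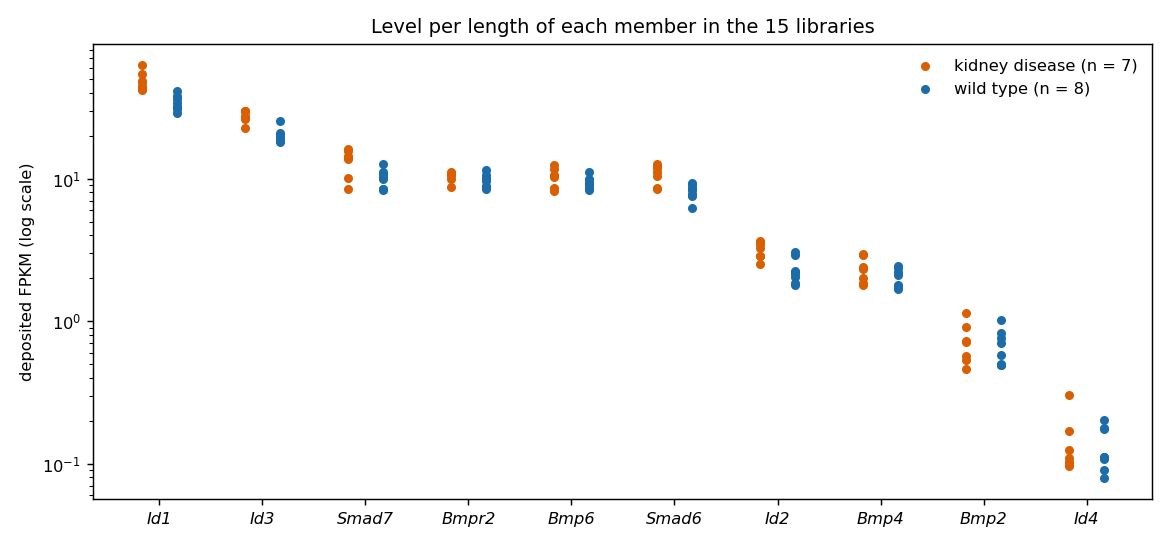
Deposited FPKM (y axis, log scale) of each gene in every library, ordered by the mean over the 15 libraries, with kidney disease points left of wild-type points. Id1 and Id3 lie highest, at means of 41.0 and 23.6 FPKM, and Bmp2 and Id4 lie below 1 FPKM on average.

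The 7 lists of other pathway genes held 72 genes, of which 62 were tested. Of these 62, 2 rose and none fell, against 0.811% higher and 0.473% lower over all genes tested. Their log2 changes were above 0 in 34 genes and had a median of 0.03. At an unadjusted p under 0.05 there were 6 of the 62 (9.68%), against 12.4% of all genes tested, and DESeq2 called 3 and limma-voom 2. None of the 8 tested other ligands was called (0 at an unadjusted p under 0.05, and 0 by DESeq2 and by limma-voom). The smallest p among them was that of Bmp5 (log2 change 0.42, SE 0.21, adjusted p = 0.440). Bmp10, a ligand made by atrial cardiomyocytes, ranged over 2.50 to 312 CPM in kidney disease libraries, against 0.0199 to 232 CPM in wild-type libraries, with a log2 change of 0.71 (SE 0.86).

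None of the 13 other receptors and co-receptors was called by edgeR, DESeq2 or limma-voom, with 1 at an unadjusted p under 0.05. That one was Eng, which encodes the endothelial co-receptor endoglin, at 275 ± 24.3 CPM in kidney disease and 239 ± 28.7 CPM in wild type (log2 change 0.21, SE 0.08, adjusted p = 0.237). The next by p was Hjv, which encodes the BMP co-receptor hemojuvelin (log2 change -0.17, SE 0.10, adjusted p = 0.532). The type I receptor genes Bmpr1a, Acvr1 and Acvrl1 had log2 changes of -0.07, 0.07 and 0.08. The signal-carrying Smads had log2 changes of 0.05 for Smad1, 0.03 for Smad5 and -0.01 for Smad4, and the E protein genes Tcf3, Tcf4 and Tcf12 at 0.06, 0.01 and 0.02. No gene of these Smad and E protein lists reached an unadjusted p of 0.05 in edgeR, and neither DESeq2 nor limma-voom called one.

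Among 14 tested extracellular antagonists and binders, 1 rose. Fstl1, a secreted follistatin-like glycoprotein that binds BMP4 and is made by fibroblasts, was at 85.2 to 112 CPM in kidney disease libraries, against 62.5 to 81.8 CPM in wild-type libraries, with no overlap. Its log2 change was 0.47 (SE 0.07, adjusted p = 0.00463). Nbl1, a secreted BMP antagonist, was next by p, at 12.5 to 16.8 CPM in kidney disease libraries, against 9.55 to 15.01 CPM in wild-type libraries (log2 change 0.25, SE 0.09, adjusted p = 0.232). The classic antagonists Chrd and Nog did not pass the test: the log2 change of Chrd was -0.24 (SE 0.13, adjusted p = 0.458) and that of Nog 0.53 (SE 0.33, adjusted p = 0.564). Of 10 intracellular regulators none was called, by edgeR, DESeq2 or limma-voom, with Skil, a co-repressor of Smads, at the lone unadjusted p under 0.05 (log2 change 0.14, adjusted p = 0.382).

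Of 10 tested other BMP-responsive genes, 1 rose and 8 had log2 changes above 0, with a median of 0.18. Hey1, a transcriptional repressor induced by BMP and also a standard Notch target, was at 13.8 to 19.4 CPM in kidney disease libraries, against 8.47 to 13.4 CPM in wild-type libraries, with no overlap. Its log2 change was 0.69 (SE 0.09, adjusted p = 0.00132). Tmem100, an endothelial gene downstream of BMP9 and BMP10 signalling, was at 12.5 ± 3.43 CPM in kidney disease and 9.07 ± 1.26 CPM in wild type (log2 change 0.46, SE 0.14, adjusted p = 0.130). Atoh8 was at a log2 change of 0.20 (SE 0.11, adjusted p = 0.477).

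The tissue pieces also differed in markers of other cell types, and in bulk RNA a change in the number of cells of a type and a change in RNA per cell cannot be told apart. Of 12 macrophage and myeloid markers 6 rose, with a summed 306 to 417 CPM in kidney disease libraries, against 238 to 278 CPM in wild-type libraries. Of 6 B cell markers 5 rose, with 16.9 to 27.4 CPM in kidney disease libraries, against 7.10 to 15.001 CPM in wild-type libraries. Of 10 fibroblast markers 5 rose, with summed levels of 1975 to 2434 CPM in kidney disease libraries, against 1982 to 2292 CPM in wild-type libraries. Most of this sum was Gsn, at a mean of 1397 CPM in kidney disease and 1324 CPM in wild type. The mean log2 CPM of the 10 fibroblast markers averaged 6.37 in kidney disease and 6.16 in wild type. On that measure 7 kidney disease libraries lay above every wild-type library. No marker of these 3 lists was at 0 in any library. Their part in the changes of the Id and Smad genes was not tested.

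Endothelial markers were also compared, since endothelium is a main site of BMP signalling. None of the 12 was called by edgeR, DESeq2 or limma-voom, with 3 at an unadjusted p under 0.05, and none was at 0 in any library. Their median log2 change was 0.13, with 11 of 12 above 0, and their summed level was 1470 to 1705 CPM in kidney disease libraries, against 1307 to 1550 CPM in wild-type libraries. Over the 12 markers the log2 changes ran from -0.08 to 0.39. With group means subtracted, Pearson r with their mean log2 CPM over the 15 libraries was -0.02 for Id1 (permutation p = 0.931). For Id2, Id3 and Id4 r was 0.16, 0.46 and 0.05 (permutation p = 0.599, 0.0711 and 0.848). None of these pairs passed an adjusted p of 0.05. The part of the endothelial markers in the changes of the Id genes was not tested. None of the 6 erythroid markers was called, though all 6 had unadjusted p under 0.05, with a summed 311 to 825 CPM in kidney disease libraries, against 560 to 1077 CPM in wild-type libraries. Neither DESeq2 nor limma-voom called an erythroid marker.

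The library splits moved some calls and some directions. Bmp2, Bmp6 and Id4 changed direction in the libraries led by mt-Co1, and Bmp4 in those led by Ttn. Within the 10 libraries led by mt-Co1, 4 kidney disease and 6 wild type, the log2 change was 0.50 for Id1 (SE 0.12, adjusted p = 0.0806) and 0.43 for Id3 (SE 0.07, adjusted p = 0.0257). Within the 5 led by Ttn it was 0.43 for Id1 (SE 0.11, adjusted p = 0.350) and 0.27 for Id3 (SE 0.10, adjusted p = 0.563). Smad6 had 0.29 (SE 0.12) in the libraries led by mt-Co1 and 0.47 (SE 0.11) in those led by Ttn. Smad7 had 0.22 (SE 0.13) in the libraries led by mt-Co1 and 0.42 (SE 0.09) in those led by Ttn.

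Atrial transcripts were also compared with the 10 genes between libraries. All 6 atrial markers had log2 changes above 0, none was called (0 at an unadjusted p under 0.05, and 0 by DESeq2 and by limma-voom), and their sum ran over 35.6 to 1793 CPM in kidney disease libraries, against 39.8 to 1511 CPM in wild-type libraries. Over all 15 libraries, after subtraction of group means, Smad6 correlated with the atrial score at Pearson r = 0.81 and Spearman rho = 0.83 (permutation p = 0.0001 for r, adjusted p = 0.013) and Smad7 at r = 0.79 and rho = 0.68 (permutation p = 0.00062 for r, adjusted p = 0.028). For Id3 r was 0.02 and rho 0.41 (permutation p = 0.944 for r and 0.145 for rho). Because 2 libraries stand apart in the score, r was also computed without them, a choice made after seeing the data. Over the 13 libraries other than kidney disease 6 and wild type 5, Smad6 had r = 0.74 and rho = 0.73 (permutation p = 0.0038 for r and 0.0094 for rho). Smad7 had r = 0.74 and rho = 0.60 (permutation p = 0.0083 for r and 0.045 for rho), and Id3 had r = 0.69 and rho = 0.65 (permutation p = 0.010 for r and 0.020 for rho). Over all 130 pairs of a gene and a marker list, 4 passed with 15 libraries and 0 with 13, where the adjusted p of these 3 was 0.1957. Within the libraries led by mt-Co1, with none left out, r was 0.85 for Smad6, 0.76 for Smad7 and -0.08 for Id3. Without a further 2 libraries of the 13, those farthest from the median score, r was 0.49 for Smad6, 0.70 for Smad7 and 0.54 for Id3. Bmp10 is also an atrial marker in this score. The other 2 of the 4 passing pairs were not atrial. They were Smad7 with lymphatic endothelial markers (r = 0.78, permutation adjusted p = 0.028) and Bmpr2 with erythroid markers (r = 0.76, permutation adjusted p = 0.038). Without passing, Smad7 also had r = 0.78 with mesothelial and epicardial, 0.77 with endocardial and -0.74 with macrophage and myeloid markers.

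With the atrial score as a term in the model, the log2 changes were 0.47 for Id1 (SE 0.09, adjusted p = 0.00727), 0.38 for Id2 (SE 0.09, adjusted p = 0.0334), 0.38 for Id3 (SE 0.06, adjusted p = 0.00328), 0.30 for Smad6 (SE 0.06, adjusted p = 0.0148) and 0.26 for Smad7 (SE 0.08, adjusted p = 0.0731). Without kidney disease 6 and wild type 5, Id3 kept its call (0.35, SE 0.06, adjusted p = 0.0197) and Id1 did not (0.37, SE 0.08, adjusted p = 0.0550).

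**Figure D4:**
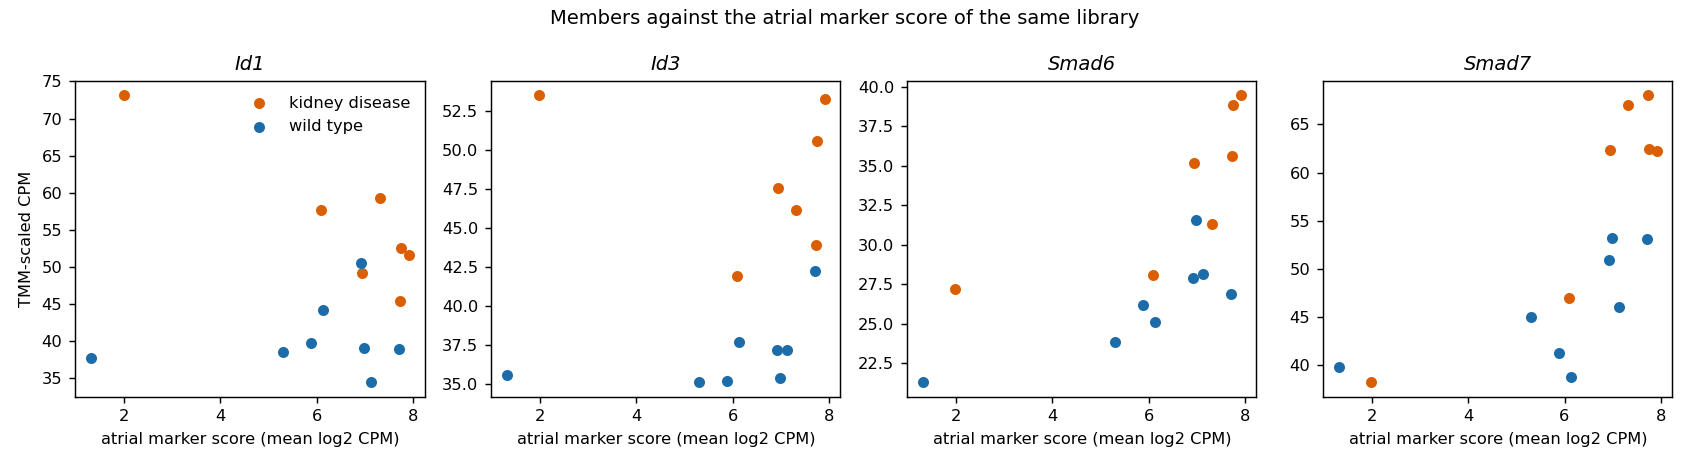
TMM-scaled CPM (y axes, not from 0) of Id1, Id3, Smad6 and Smad7 against the atrial marker score (x axes, mean log2 CPM of 6 genes), 1 point a library. Kidney disease 6 and wild type 5 lie apart at scores of 1.99 and 1.31, and among the other 13 libraries Smad6 and Smad7 are higher where the score is higher.

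The 10 genes did not vary as 1 block between animals of a group. Over 45 pairs of genes, with group means subtracted, 35 correlations were positive and none passed an adjusted p of 0.05 (8 at an unadjusted permutation p under 0.05 for Pearson r, 5 for Spearman rho). The smallest p was that of Smad6 with Smad7 (n = 15, r = 0.75, permutation p = 0.0022, adjusted p = 0.101; rho = 0.61, permutation p = 0.023, adjusted p = 0.340). This r was 0.88 over the mt-Co1-led libraries alone and 0.62 without kidney disease 6 and wild type 5, which were also the 2 farthest from the median of Smad6. Id1 and Id3 correlated at only r = 0.26 and rho = 0.12 (permutation p = 0.418 for r and 0.697 for rho), and Id2 with Id3 at r = 0.51 and rho = 0.48 (permutation p = 0.044 for r and 0.071 for rho, adjusted p = 0.246 for r).

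Id1 went against the receptor gene. Its correlation with Bmpr2 was r = -0.65 and rho = -0.59 (permutation p = 0.012 for r and 0.017 for rho, adjusted p = 0.181 for r), and r was -0.38 without kidney disease 6 and wild type 4. Kidney disease 6 had the highest Id1 and the lowest Smad6, Smad7, Bmp6 and Bmpr2 of its group.

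**Figure D5:**
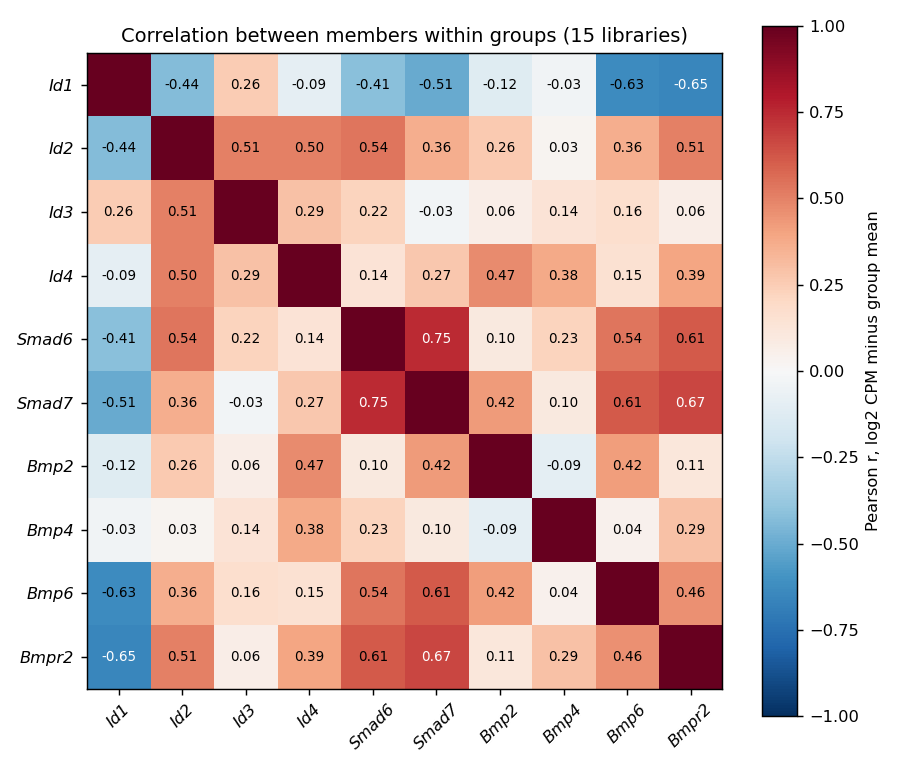
Pearson r between the 10 genes over the 15 libraries, on log2 CPM with the group mean subtracted (color scale from -1 to 1). All pairs among Smad6, Smad7, Bmp6 and Bmpr2 are positive, with 0.75 between Smad6 and Smad7. Id1 is negative with all 4, down to -0.65 with Bmpr2. None of these pairs passed after adjustment. Over the 13 libraries other than kidney disease 6 and wild type 5, r ran from 0.22 to 0.62 among the 4 genes. Between Id1 and the 4 genes r then ran from -0.50 to -0.19.

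Of 12468 protein-coding genes with a mean of at least 1 CPM, those most like each member over the 15 libraries were ranked by Pearson r of log2 CPM, with group means subtracted and with no test. The highest r among so many genes over 15 libraries can be high by chance, and how high was not computed. Id1 was followed most closely by Tcim (r = 0.92), Gpihbp1 (0.89), which anchors lipoprotein lipase on capillary endothelium, and Nfkbia (0.89), an inhibitor of NF-kappaB. Id3 was followed by Bcdin3d (0.83), Lilr4b (0.80) and Ctso (0.79), and Id2 by Adm (0.84), the gene of the vasodilator adrenomedullin, Slc7a6 (0.84) and Pgbd1 (0.84). Smad6 was followed by Clu (0.89) and Atp6v0e2 (0.88), and Smad7 by Zfp579 (0.94), Cacna1h (0.93), a T-type calcium channel gene, and Sort1 (0.93). Bmp6 was most like Igfbp3 (0.88) and Smad9 (0.86), a BMP-activated Smad, and Bmpr2 was most like Cpd (0.94). Bmp4 was most like Gba2 (0.89), Bmp2 most like Adamtsl1 (0.88) and Id4 most like Fam241b (0.79).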

How the data were processed

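The authors deposited 1 table per library with raw counts, CPM (counts scaled to the library total) and FPKM (CPM per kilobase of exon) for each gene, per the file headers. Per the submitters' processing notes, bcl2fastq, STAR 2.7.9a, Subread and featureCounts 2.0.3 were used with GRCm38. How reads were counted, strand included, is not given in the sources used here. Per the labels' protocols, total RNA had an integrity number of at least 8 and was depleted of ribosomal RNA with KAPA RiboErase.

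Gene names came from GENCODE M21 (55227 of 55487 IDs matched), promoters from RefSeq on GRCm38.p6. Genes kept by edgeR's filterByExpr (minimum count 10) were scaled with TMM. The model held group alone, and edgeR 4.0.16 under R 4.3.3 gave quasi-likelihood F tests with Benjamini-Hochberg adjustment over the 20718 genes tested (threshold 0.05). Log2 changes are kidney disease minus wild type. CPM values in the report are TMM-scaled. DESeq2 1.42.0 and limma-voom 3.58.1 were alternatives. Correlations used log2 CPM (prior count 0.5) minus group means, with 100000 two-sided permutations within groups and Benjamini-Hochberg adjustment over each family of pairs. The rule for other pathway genes allowed up to 4 of each list with the smallest p, of which not all are named. Acvr1, Bmpr1a and Nog fall outside it and were picked with their values known. The 10 genes and the lists were chosen with earlier results of these data known. The scripts were tested on simulated counts. Identical libraries were looked for and 0 pairs found: over 49 pairs within groups, chi-square per degree of freedom was at least 8.44. The deposited CPM, recomputed from the counts, differed by no more than a relative tolerance of 1e-06. Id4, at 16 to 72 counts per library, has the largest counting error of the 10 genes.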

Additional observations from a re-analysis of the deposited data

Results flagged for a closer look

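Outlying libraries were looked for with Dixon's test in each gene and group, 20 groups in all, where chance flags about 1 in 20. Id3 in wild type was flagged because wild type 7, at 42.2 CPM, lay far above the next library at 37.7 CPM. Id4 in kidney disease was flagged because kidney disease 5, at 1.10 CPM from 72 counts, lay far above the next library at 0.651 CPM. The calls of Id1 and Id3 held without either library.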

How the results depend on the processing

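Id1 and Id3 kept their direction in every alternative run and their calls in 15 of 15 fits that left out 1 library, in which Id1 had log2 changes of 0.38 to 0.51 (adjusted p 0.0159 to 0.0491) and Id3 of 0.35 to 0.41. Of all genes tested, 0.811% were called higher and 0.473% lower (168 and 98 genes). Without wild type 5 the shares were 0.325% and 0.146%, and without wild type 7 they were 0.958% and 0.939%, the lowest and highest with 1 library left out. The count moved by over 1.5 times in 10 of 15 such fits for genes higher and in 13 of 15 for genes lower. These fits gave 2 to 4 of the 10 genes higher and 2 to 3 other pathway genes higher. With 1 library left out, 0 correlated pairs between the 10 genes passed. Passing pairs of a gene and a marker list were not counted with 1 library left out. DESeq2 called 2.17% higher and 1.51% lower (378 and 262 genes), and 4 of the 10 higher, with Id2 and Smad6 added. The genes called lower numbered 65 with no filter (0.163%) and 154 with a filter of 1 CPM in 7 libraries (1.05%), where the number of genes tested also differed. The library class as a term gave 1.62% higher and 0.907% lower. Libraries led by mt-Co1 gave 0.242% and 0.174%, with 1 of the 10 higher. Libraries led by Ttn gave 0.00447% and 0.00893% (1 and 2 genes), with 0 of the 10 and 1 other pathway gene higher. The atrial score as a term, added after seeing the data, gave 1.52% and 0.878%, with 4 of the 10. Leaving out kidney disease 6 and wild type 5, also added later, gave 0.283% and 0.153%, with 1 of the 10. Correlated pairs of a gene and a marker list numbered 4 with all 15 libraries, 2 with Spearman's rho, and 0 both in the mt-Co1-led libraries alone and without kidney disease 6 and wild type 5.

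Directions reversed for genes near 0. Bmp2 was at -0.068 with the library class, -0.12 in libraries led by mt-Co1, -0.0067 with the atrial score and -0.091 to 0.13 with 1 library left out. Id4 was at -0.12 in libraries led by mt-Co1, -0.0034 with the atrial score and -0.22 to 0.15 with 1 library left out. Bmp6 was at -0.0041 in libraries led by mt-Co1, and Bmp4 at -0.031 in those led by Ttn. The causes were not tested. Fewer libraries enter the split fits, while the fits with the library class or the atrial score as a term hold all 15.

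Replicate numbers are shared between the groups. Of the same-numbered pairs, 2 of 7 correlated above 0.1 (-0.20 to 0.42) and 2 of 7 correlated best with their own number. These 7 correlations did not show that the numbers pair the animals, and they are too few to exclude it. A replicate block without wild type 8 gave 0.321% of genes higher and 0.243% lower, with Id3 (adjusted p = 0.0234) and Smad6 (0.0397) called and Id1 at 0.0558.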
